A study of Homo sapiens with 2 samples.

Results

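The cytosines described here lie in the mitochondrial mRNAs that encode subunits of respiratory complex I, in RNA BS-Seq libraries of 2 human mammary cell lines. They were chosen by position and depth: every cytosine on the plus strand of chrM, in the UCSC hg19 numbering of the deposited tables, within the gene intervals of MT-ND1 (3310 to 4262), MT-ND2 (4473 to 5510), MT-ND3 (10062 to 10403), MT-ND4L/MT-ND4 (10473 to 12136) or MT-ND5 (12340 to 14147), and with a coverage of at least 10 reads. In MCF10A 688 cytosines met this rule, of 1584002 cytosines kept in that library, and in MDA-MB-468 455 did, of 1271253. Of these, 398 were kept in both lines and 745 in at least 1. At any coverage, which in these tables starts at 5, the intervals held 1130 listed cytosines in the MCF10A table and 870 in that of MDA-MB-468, and those under 10 were left out.

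Complex I (NADH:ubiquinone oxidoreductase) takes electrons from NADH, passes them to ubiquinone and pumps protons across the inner mitochondrial membrane. Its membrane arm is built from hydrophobic ND subunits that the mitochondrial genome encodes, while the remaining subunits come from nuclear genes and are imported. The mitochondrial genome is transcribed into long precursors from both strands, and these mRNAs are cut out between the flanking tRNAs. They have no introns and nearly no untranslated sequence, so the cytosines lie almost entirely in coding sequence. MT-ND4L and MT-ND4 share 1 mRNA with overlapping reading frames. 5-Methylcytosine (m5C) is a base modification known from rRNA, tRNA and, at lower levels, mRNA. Bisulfite converts unmodified cytosine to uracil and leaves m5C as cytosine, but a cytosine that the reagent did not reach, for example in base-paired RNA, is read as unconverted as well.

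MCF10A is an established line of normal epithelium of the breast. MDA-MB-468 is an established breast cancer line with an amplified EGFR gene. No treatment and no engineered change is given for either. Poly(A)+ RNA of each was treated with sodium bisulfite for 8 hours at 60 degrees. There was 1 library per line, without replicates, so differences between cultures of the same line could not be estimated. The methods name different culture media for the lines, whereas the labels give DMEM for both. By the methods, medium, library and line cannot be told apart.

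Over the whole series the kept cytosines had a median of 18 reads in each library, and 1.99% of their counts in MCF10A and 1.81% in MDA-MB-468 were unconverted. The members held 18529 counts in MCF10A and 12655 in MDA-MB-468, which is 306 and 298 CPM of the kept counts (CPM, depth-scaled counts). Counts over exonic cytosines, as CPM of all such counts, were used to check the lines against their markers. EGFR had 246 CPM in MCF10A against 3109 in MDA-MB-468. The basal genes KRT5 and KRT17 were present in both lines, at 232 and 138 CPM in MCF10A and 120 and 1714 in MDA-MB-468, while LAMB3 was at 4803 in MCF10A against 1.23 in MDA-MB-468. TP63 was listed in neither library. KRT14 stood at 3.22 CPM in MCF10A and was not listed in MDA-MB-468. The epithelial genes CDH1 and EPCAM were close to absent in MCF10A (0.479 and 0.0726 CPM) against 69.7 and 124 in MDA-MB-468, and KRT8 and KRT18 were present in both. PTPRC, a leukocyte gene, and ALB, a hepatocyte gene, were listed in neither line.

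Most of these cytosines carried a far higher share of unconverted reads than the rest of the transcriptome. Each cytosine was compared with the unconverted share of all kept cytosines of its library by a one-sided Fisher's exact test with Benjamini-Hochberg adjustment over all kept cytosines, and was called m5C at an FDR of 0.05. In MCF10A 591 of the 688 cytosines were called (85.9%), where 0.96% of all kept cytosines, 0.851% of the nuclear exonic ones and 56.8% of the kept chrM cytosines of both strands were. In MDA-MB-468 373 of 455 were called (82.0%), against 0.84% of all kept cytosines, 0.742% of the nuclear ones and 49.6% of those on chrM. Against the unconverted share of the kept chrM cytosines in place of all, 381 cytosines of MCF10A (55.4%) and 263 of MDA-MB-468 (57.8%) were called. The share of all kept chrM cytosines called against that background is not given. The 56.8% and 49.6% above were taken against all kept cytosines, so they cannot be set beside these shares. The methylation ratio, the unconverted share of the reads at a cytosine, had a median of 60.8% in MCF10A and 42.9% in MDA-MB-468, whereas the median over all kept nuclear cytosines was 0 in each line. With all counts of the members pooled, 42.8% were unconverted in MCF10A (95% Wilson interval 42.1% to 43.5%) and 30.9% in MDA-MB-468 (30.1% to 31.7%). These and all intervals below cover counting error only. Reads without molecular identifiers are not independent molecules, and neighboring cytosines share reads, so the intervals are too narrow. The filter for predicted RNA secondary structure in the methods was not applied to the tables, and the part of structure in these ratios was not tested.

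Ratios ran over the whole scale. In MCF10A 178 of the 688 cytosines had a ratio of at least 90%, 95 of them with every read unconverted, while 40 had a ratio under 10%, 6 of them with no unconverted read. In MDA-MB-468 125 of 455 had a ratio of at least 90%, 84 of them fully unconverted, and 77 lay under 10%, 16 of them with no unconverted read. The depth set what could be called. At a coverage of 10 at least 4 unconverted reads were needed in each library, at 20 at least 5 in MCF10A but 4 in MDA-MB-468, and at 100 at least 9 and 10.

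MT-ND1, a subunit of the part of the membrane arm close to the ubiquinone site, had every kept cytosine called in MCF10A, 192 of 192. In MDA-MB-468 114 of 123 were. Pooled, 59.1% of the reads were unconverted in MCF10A (57.7% to 60.6%) and 26.8% in MDA-MB-468 (25.5% to 28.1%), with median ratios of 80.6% and 36.1%. The cytosines kept differed between the lines, and the values at the shared ones are given further on. At a coverage of at least 20 the pooled ratios were 51.0% and 17.9%. Within the gene the ratio was highest toward the 5′ end. In the windows of 100 nt that started 0, 100 and 200 nt into the interval, the pooled ratio was 76.8%, 89.7% and 91.4% in MCF10A and 93.1%, 86.7% and 98.8% in MDA-MB-468. It was 51.0% and 33.7% in the window at 300 nt. In the window at 500 nt it was 19.01% in MCF10A against 8.74% in MDA-MB-468. This last window was the deepest of the gene, with a median of 49 converted reads in MCF10A and 106 in MDA-MB-468 but 11 and 9 unconverted reads, within the range of the windows before it. The highest ratio at a coverage of at least 20 was at position 3535 in MCF10A, with 27 of 28 reads unconverted (96.4%, 95% interval 82.3% to 99.4%, adjusted p = 7.94e-42 by Fisher's exact test), and 12 of 12 reads were unconverted there in MDA-MB-468. In MDA-MB-468 it was at position 3352, with 19 of 20 reads (95%, 76.4% to 99.1%, adjusted p = 2.57e-29, Fisher's exact test) and 10 of 12 in MCF10A. No kept cytosine lay in the last 3 windows of MT-ND1.

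MT-ND2, a core subunit of the proton-pumping membrane arm, was sparsely covered. All of its kept cytosines, 15 in MCF10A and 16 in MDA-MB-468, lay in a single window of 100 nt, from 4873 to 4972. Pooled ratios there were 23.3% in MCF10A (19.01% to 28.2%) and 4.85% in MDA-MB-468 (3.01% to 7.73%). In MCF10A 11 of 15 were called, and in MDA-MB-468 0 of 16. Each of the 16 had exactly 1 unconverted read, at coverages of 10 to 22, where 4 were the fewest called. In MCF10A the unconverted reads ranged from 3 to 7. The highest MCF10A site, position 4952, had 7 of 23 reads unconverted (30.4%, 15.6% to 50.9%, adjusted p = 4.46e-05, Fisher's exact test), and 1 of 22 in MDA-MB-468. As the cytosines of the window lie close enough to share reads, they amount to few independent observations of the gene. With cytosines of coverage 5 and above included, the pooled ratio of MCF10A was 51.6%.

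MT-ND3, a small subunit at the hinge of the membrane and peripheral arms, had the highest pooled ratio of these mRNAs in both lines, 94.3% in MCF10A (92.6% to 95.7%) and 95.9% in MDA-MB-468 (93.2% to 97.6%). Every kept cytosine was called, 31 of 31 and 20 of 20, and the lowest ratios were 76.9% and 90.5%. In MCF10A the median cytosine had 29 unconverted and 2 converted reads, and in MDA-MB-468 16 and 1. No cytosine had more than 3 converted reads in MCF10A or 2 in MDA-MB-468. The kept cytosines were confined to the windows of the first 200 nt. Position 10108 had 47 of 47 reads unconverted in MCF10A (92.4% to 100%, adjusted p = 6.94e-77, Fisher's exact test), 1 of 8 cytosines of this gene with a ratio of 100% at a coverage of at least 20, and 16 of 16 in MDA-MB-468. In MDA-MB-468 position 10135 had 20 of 21 reads unconverted (95.2%, 77.3% to 99.2%, adjusted p = 5.31e-31, Fisher's exact test), and 37 of 40 in MCF10A.

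MT-ND4L/MT-ND4, which encode 2 further subunits of the membrane arm, contributed the largest number of cytosines. In MCF10A 258 of 285 were called and in MDA-MB-468 162 of 197. Pooled ratios were 32.04% (31.1% to 32.95%) and 26.6% (25.5% to 27.7%), and median ratios 52.9% and 36.4%. At a coverage of at least 20 the pooled ratios were 22.7% and 17.3%. Along this mRNA high and low stretches alternated. The pooled ratio in the window at 0 nt was 64.0% in MCF10A against 52.4% in MDA-MB-468. It was 6.41% and 7.34% in the window at 200 nt. At 400 nt it was 98.7% and 100%. It was 18.2% and 23.3% at 900 nt, 41.0% and 39.3% at 1200 nt, and 12.5% and 11.4% at 1300 nt. The windows at 1000 and 1100 nt, with 81.5% and 86.4% in MCF10A, held no kept cytosine in MDA-MB-468, and at 1500 nt the ratio was 13.6% in MCF10A against 25.8% in MDA-MB-468. At 1300 nt the median cytosine had 124 converted reads in MCF10A against 82 in MDA-MB-468, with 15 and 9 unconverted, whereas at 400 nt it had 0 converted reads in each line, with 13 and 10 unconverted. Position 11147 had 21 of 21 reads unconverted in MCF10A (84.5% to 100%, adjusted p = 3.2e-33, Fisher's exact test) and 10 of 11 in MDA-MB-468. Position 11365 had 14 of 20 in MDA-MB-468 (70.0%, 48.1% to 85.5%, adjusted p = 1.13e-17, Fisher's exact test) and 22 of 39 in MCF10A (56.4%).

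MT-ND5, the subunit at the far end of the membrane arm, had nearly fully unconverted ends and a low middle. In MCF10A 99 of its 165 cytosines were called and in MDA-MB-468 77 of 99. Pooled ratios were 41.4% (39.6% to 43.3%) and 53.4% (50.8% to 56.0%). The median ratio was 30% in MCF10A against 92.3% in MDA-MB-468, over different sets of cytosines. At the 69 kept in both lines the medians were 17.6% and 44.4%, and the median difference was 0 points. The windows at 1400, 1500 and 1600 nt had pooled ratios of 100%, 100% and 98.7% in MCF10A and 100%, 100% and 99.4% in MDA-MB-468. At 100 nt the ratio was 96.8% and 99.3%. Between these, at 300 nt, it was 10.9% and 14.5%, and at 400 nt it was 19.6% in MCF10A against 0.441% in MDA-MB-468. In MCF10A all 66 cytosines that were not called lay between 12622 and 13397. In each line 49 cytosines of this gene were fully unconverted, with at most 15 unconverted reads in MCF10A and 13 in MDA-MB-468. At a coverage of at least 20, 7 called cytosines were left in MCF10A and 5 in MDA-MB-468, none of them fully unconverted. Pooled over all cytosines of that depth the ratio was 14.2% for MCF10A and 11.2% for MDA-MB-468, a reversed order of both lines. The highest of them had 8 of 20 reads unconverted in MCF10A, at position 12775 (40.0%, 21.9% to 61.3%, adjusted p = 6.2e-07, Fisher's exact test). There 0 of 11 were unconverted in MDA-MB-468, which allows a share of up to 27.3%. In MDA-MB-468 the highest was position 12634, with 9 of 20 reads (45.0%, 25.8% to 65.8%, adjusted p = 1.05e-08, Fisher's exact test), and 4 of 21 in MCF10A.

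**Figure D1:**
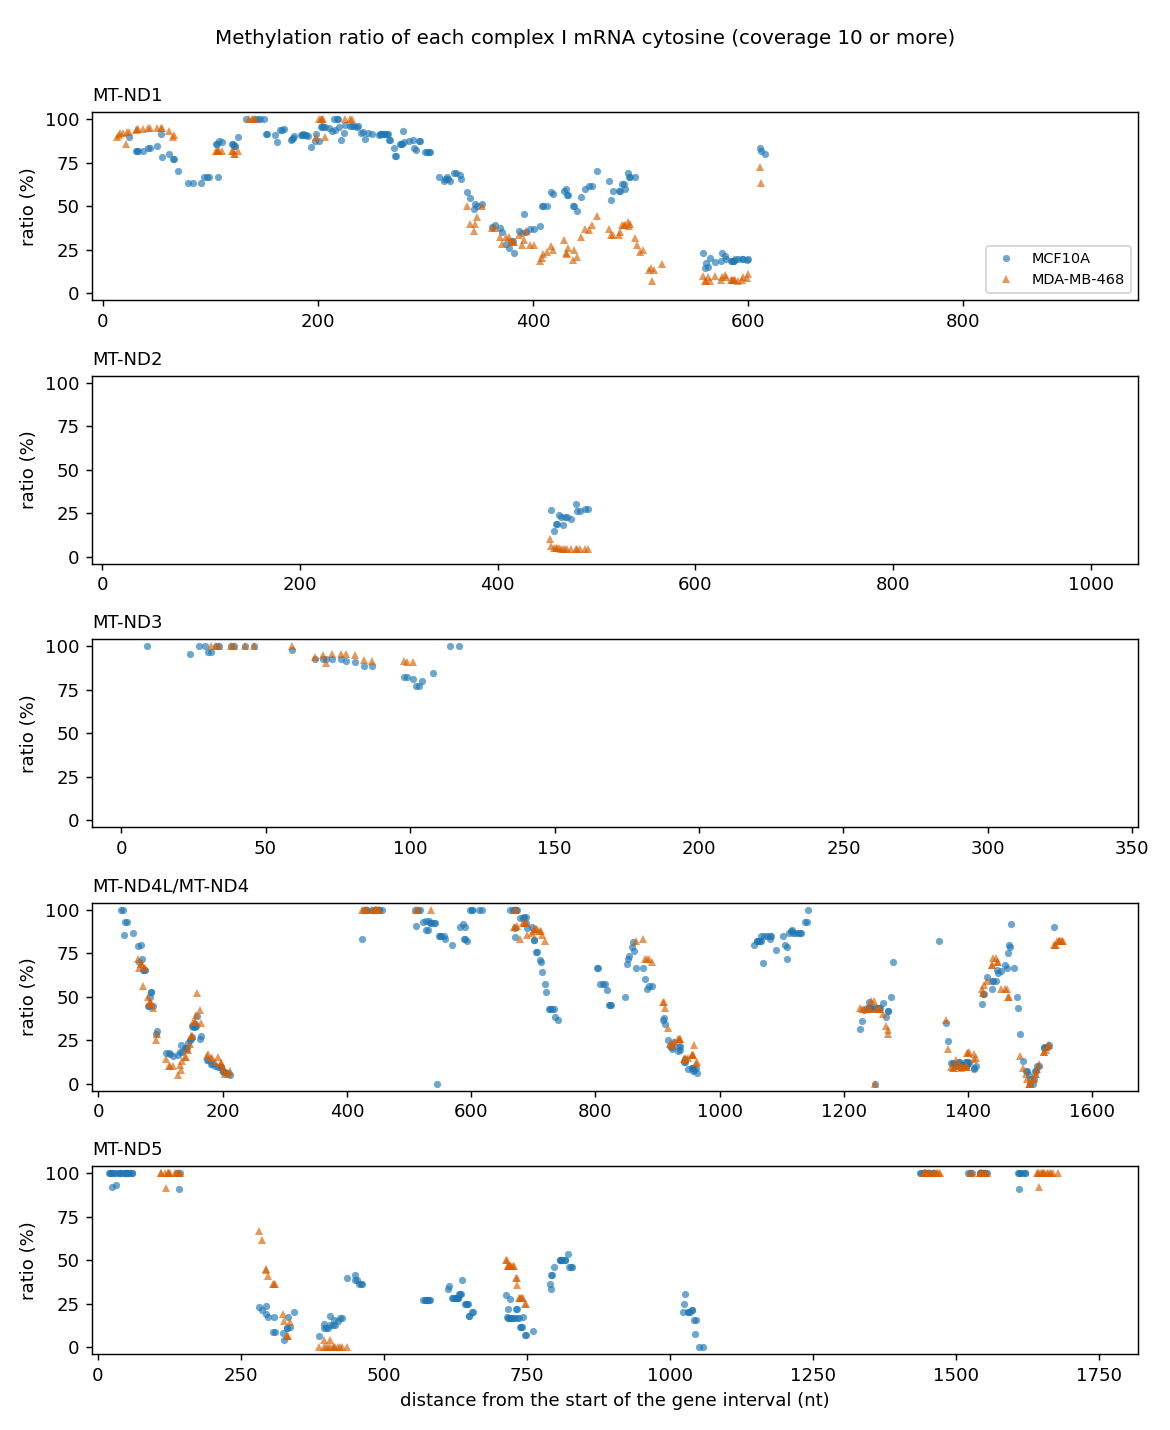
Methylation ratio in percent (vertical axis) of each kept cytosine against its distance in nt from the start of its gene interval (horizontal axis), with 1 panel per gene, circles for MCF10A and triangles for MDA-MB-468 (1 library each, no error bars). MT-ND3 lies at 76.9% or above throughout, MT-ND5 has ends near 100% and a low middle, and MT-ND4L/MT-ND4 alternates between high and low stretches, with no MDA-MB-468 cytosine in the windows at 1000 and 1100 nt.

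Between cytosines the number of unconverted reads spanned a narrower range than the number of converted reads. Over all members the median number of unconverted reads was 11 for MCF10A and 9 for MDA-MB-468. Between 5 and 20 unconverted reads were found at 511 of the 688 cytosines in MCF10A (74.3%) and at 369 of 455 in MDA-MB-468 (81.1%), whereas 35.6% and 34.3% of the cytosines had a converted count in that range. The range was not planned and lies around the median unconverted counts, which favors them. The coverage minimum acts on the sum of both counts, so cytosines with few unconverted reads were kept only with more converted ones. The same shares over all kept cytosines are not given. Between the 10th and the 90th percentile of the cytosines, unconverted counts spanned 3 to 20 in MCF10A and 2 to 13 in MDA-MB-468, and converted counts 0 to 40 and 0 to 67. The highest converted counts were 127 and 109.

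The pooled ratio was lower at deeper cytosines. In MCF10A it was 69.3% at a coverage of 10 to 14, 65.8% at 15 to 19, 65.2% at 20 to 29, 36.3% at 30 to 49 and 14.3% at 50 and above. In MDA-MB-468 it was 82.2%, 55.4%, 31.1%, 18.7% and 10.5% in the same classes. The median unconverted count over these classes stayed between 10 and 16 in MCF10A and between 7 and 10 in MDA-MB-468, while the median converted count ran from 2 to 75 and from 1 to 83. Of the fully unconverted cytosines, 64 of the 95 in MCF10A and 79 of the 84 in MDA-MB-468 had a coverage of 10 to 14. Just below the coverage minimum, the 59 cytosines of MCF10A with a coverage of 9 had a median ratio of 88.9% and the 48 of MDA-MB-468 one of 72.2%. Just inside it, the 41 and 62 cytosines with a coverage of 10 had a median ratio of 100% in each line.

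**Figure D2:**
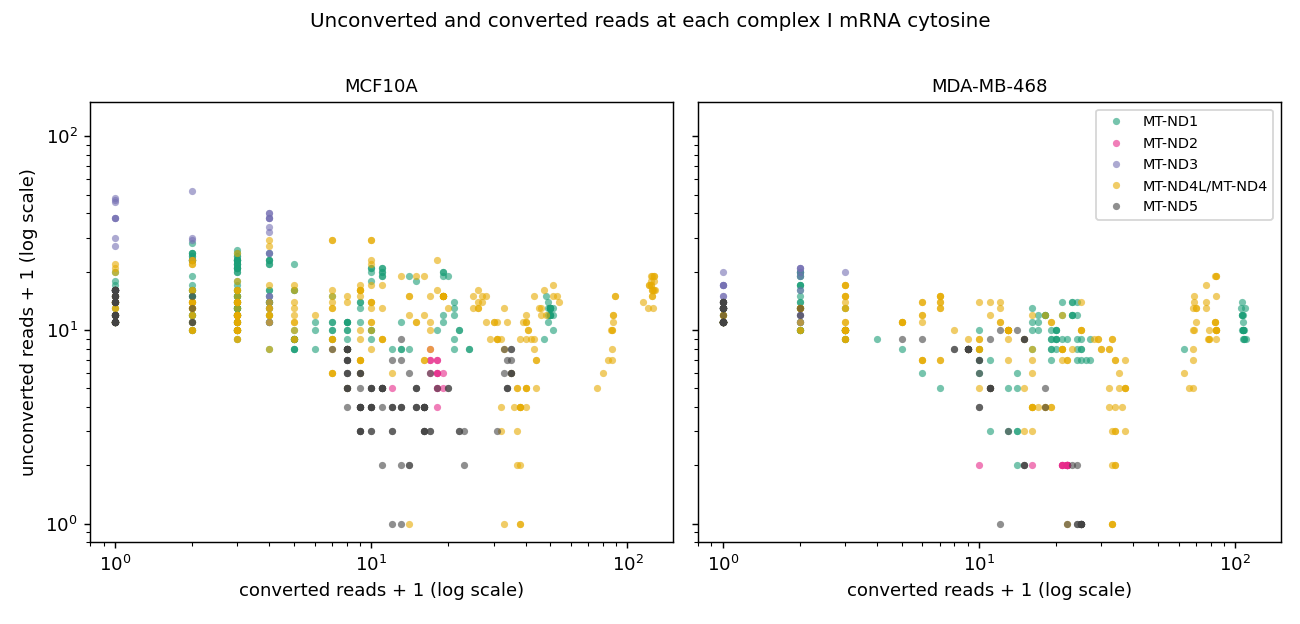
Unconverted reads plus 1 (vertical axis, log scale) against converted reads plus 1 (horizontal axis, log scale) at each kept cytosine, 1 panel per line and 1 colour per gene. Unconverted counts of 5 to 20 make up 74.3% of the cytosines in MCF10A and 81.1% in MDA-MB-468, while converted counts reach 127 and 109.

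Most called cytosines stood in long runs of kept cytosines. Successive kept cytosines that were all called and no more than 10 nt apart were joined into stretches. In MCF10A the 591 calls fell into 48 stretches, of which 20 held at least 10 cytosines and together 487 of the calls (82.4%), and 12 calls stood alone. In MDA-MB-468 the 373 calls fell into 36 stretches, of which 17 held at least 10 cytosines and 300 of the calls (80.4%), and 6 stood alone. The longest stretch of MCF10A had 157 cytosines of MT-ND1 over 437 nt, from 3334 (90% at a coverage of 10) to 3770 (70.0% at a coverage of 20), with 73.9% of its reads unconverted. Its highest site, taken as the deepest of those with the highest ratio, was position 3529, with 19 of 19 reads unconverted. The longest of MDA-MB-468, with 39 cytosines over 122 nt, lay inside it, from 3649 (50% at a coverage of 10) to 3770 (44.4% at a coverage of 27), with a pooled ratio of 30.2%. Its highest site by the same rule, position 3663, had a ratio of 50% at a coverage of 18. Long stretches also had low ratios: in MT-ND4L/MT-ND4, 43 successive cytosines from 11838 to 11957 were called in MCF10A at a pooled ratio of 17.9%, and 37 from 11838 to 11939 in MDA-MB-468 at 18.6%. This pair was chosen after its values were seen, as the longest after MT-ND1 in each line. With no more than 5 nt allowed between cytosines, the longest stretches had 34 cytosines in MCF10A and 19 in MDA-MB-468.

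Ratios of cytosines close to each other were nearly equal. Over the 225 pairs of directly adjacent cytosines in MCF10A, Pearson's r of the ratios was 0.993, and 96.0% of the pairs differed by at most 10 percentage points. Over the 143 such pairs in MDA-MB-468 r was 0.997 and 99.3% differed by at most 10 points. The correlation was 0.960 and 0.973 at a distance of 4 to 10 nt (1500 and 910 pairs), 0.861 and 0.833 at 11 to 32 nt (3784 and 2154 pairs) and 0.593 and 0.508 at 33 to 100 nt (8487 and 3606 pairs). Pairs share cytosines and, at short distance, the same reads, so these values describe the libraries. The share called was similar in MCF10A with and without an adjacent cytosine: 84.2% of those with none, 87.1% with 1 and 87.8% with 2 were called. In MDA-MB-468 the shares were 76.7%, 86.7% and 86.0%. Pooled ratios were 42.9%, 42.6% and 43.2% in MCF10A and 32.5%, 29.9% and 28.8% in MDA-MB-468. In MT-ND5 the share called was 49.2%, 62.2% and 80.8% in MCF10A and 69.8%, 81.0% and 92.9% in MDA-MB-468, a gradient that MT-ND4L/MT-ND4 did not show (90.3%, 93.0% and 80.0% in MCF10A, and 77.4%, 90.2% and 72.7% in MDA-MB-468). These shares were not tested, since the cytosines share reads.

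The study compared the normal with the cancer line. No complex I cytosine was called different between the libraries at an FDR of 0.05 by a two-sided Fisher's exact test with Benjamini-Hochberg adjustment over the 812729 cytosines kept in both, where 0.0893% of all cytosines were (0.0202% higher and 0.0691% lower in MDA-MB-468). The adjusted p was 1 for each of the 398. At an unadjusted p below 0.05, 17 of the 398 were lower in MDA-MB-468 and 3 were higher, beside 0.743% and 0.4% of all cytosines tested, 1.14% together. Those 20 were 12 sites of MT-ND1, 1 of MT-ND2 and 7 of MT-ND5. Several were adjacent and share reads, such as 3894 to 3898 in MT-ND1. A cytosine with no unconverted read in either library cannot reach such a p, and the median nuclear ratio was 0 in each. The shares over all cytosines are therefore no like measure, and no excess of the members is read from them. With 1 library each, the test compares the libraries and not the cell lines. The depth left room for large differences to be missed. At the median coverages of the shared members, 25 in MCF10A and 21 in MDA-MB-468, a cytosine with a ratio of 100% in MCF10A would have been called different only at 47.6% or less in MDA-MB-468, and one with 48.0% at no lower value.

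Over the 398 cytosines, the ratio was higher in MDA-MB-468 at 162, lower at 193 and equal at 43, and the median difference was 0 percentage points. Between the lines the ratios had r = 0.927 and Spearman's rho = 0.878, over cytosines that share reads with their neighbors. Within MT-ND2 r was 0.0914 and rho -0.29 over 15 cytosines, and within each of the other genes r was at least 0.902. Calls were made in both lines at 299, in MCF10A alone at 32, in MDA-MB-468 alone at 23 and in neither at 44. Of the calls in MDA-MB-468 alone 21 were in MT-ND5. Of those in MCF10A alone 11 were in MT-ND2 and 11 in MT-ND4L/MT-ND4. The same counts over all cytosines kept in both lines are not given, so this overlap cannot be set beside them.

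Between the libraries the sign of the difference varied by gene, in runs of adjacent cytosines. Such cytosines share reads, so the tallies below amount to few independent observations, and no direction was tested by gene. In MT-ND1 80 of the 106 shared cytosines were lower in MDA-MB-468, with a median difference of -8.84 points, and the pooled ratio was 43.7% for MCF10A and 25.3% for MDA-MB-468. The smallest p of all the members was at position 3875, with 12 of 60 reads unconverted in MCF10A (20%, 11.8% to 31.8%) and 8 of 117 in MDA-MB-468 (6.84%, 3.51% to 12.9%), p = 0.0122 by Fisher's exact test and 1 after adjustment. At position 3741, 9 of 15 and 7 of 30 reads were unconverted (60.0% and 23.3%, p = 0.0227 by Fisher's exact test, adjusted p = 1). Both positions were picked for their p. In MT-ND2 all 15 shared cytosines were lower in MDA-MB-468, with a median difference of -18.2 points. They had 3 to 7 unconverted reads each in MCF10A and 1 each in MDA-MB-468. In MT-ND3 13 of 20 were higher in MDA-MB-468 and 1 lower, all within 9.66 points. In MT-ND4L/MT-ND4 92 were higher and 80 lower of 188, with r = 0.970 and pooled ratios of 25.5% and 25.7%. In MT-ND5 32 of 69 were higher and 17 lower. Differences there ran in blocks: at position 12622, MCF10A had 3 of 13 reads unconverted against 8 of 12 in MDA-MB-468, while at position 12763 MCF10A had 7 of 41 against 0 of 24, which allows a share of up to 12.5%. These last 2 positions were picked after their values were seen. Position 12622 had the largest upward difference of the gene (43.6 points). Position 12763 (-17.1 points) did not have the largest downward one, which was at 12775 (-40 points).

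**Figure D3:**
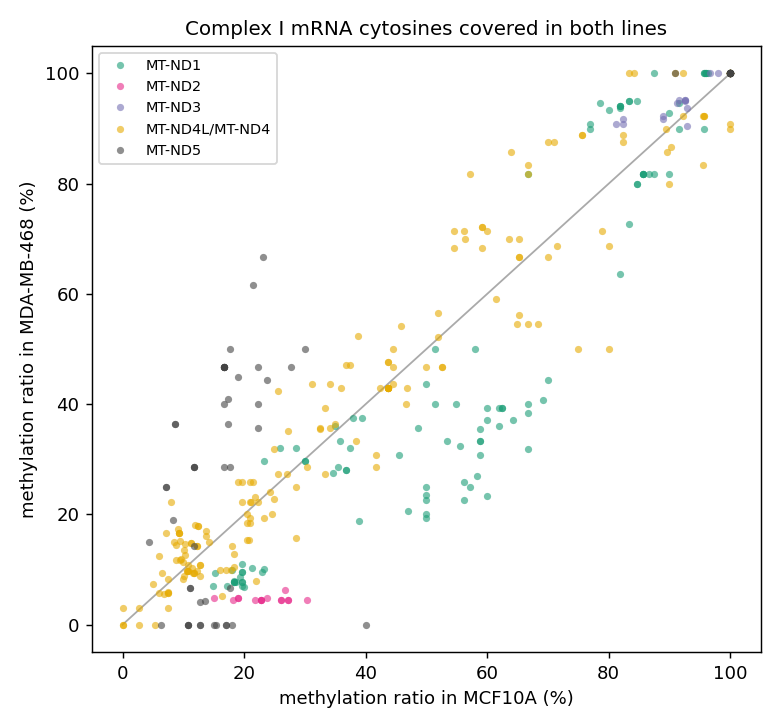
Methylation ratio in MDA-MB-468 (vertical axis, percent) against that in MCF10A (horizontal axis, percent) at the 398 cytosines kept in both lines, coloured by gene, with the line of equal ratios. MT-ND4L/MT-ND4 lies along the line (r = 0.970), most MT-ND1 sites and all 15 MT-ND2 sites lie below it, and MT-ND5 sites lie on both sides.

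Most other mitochondrial mRNAs had lower ratios than the complex I mRNAs as a whole. The plus-strand cytosines of MT-CO1, MT-CO2, MT-CO3, MT-ATP8/MT-ATP6 and MT-CYB, which encode subunits of cytochrome c oxidase, ATP synthase and complex III, were called at 51.7% of 691 kept cytosines for MCF10A and 41.3% of 559 for MDA-MB-468, and 7.44% and 4.72% of their reads were unconverted. The exception was MT-ATP8/MT-ATP6, with 72.5% (69.3% to 75.5%) and 64.5% (61.0% to 67.9%), above each complex I mRNA other than MT-ND3. MT-CO3 had 24.7% in MCF10A against 10.3% in MDA-MB-468, and MT-CO1 3.70% and 3.71%. The mitochondrial rRNAs had 8.29% and 2.19%. The median unconverted count was 9 for MCF10A and 5 for MDA-MB-468 in the other mRNAs and 6 and 8 in the rRNAs, against 11 and 9 for complex I. The median converted counts lay further apart, at 40 and 43 for the other mRNAs, 61 and 145 for the rRNAs, and 7 and 10 for complex I. No test was run between these RNAs, whose cytosines are not independent.

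The opposite strand of the same intervals, which encodes no complex I subunit there, had unconverted reads as well. Of its kept cytosines 36.0% of 478 were called for MCF10A and 47.0% of 364 for MDA-MB-468, and 11.1% and 12.2% of the reads were unconverted. In MDA-MB-468 the opposite strand of MT-ND1 had a pooled ratio of 55.1% over 31 cytosines and that of MT-ND4L/MT-ND4 47.2% over 117, both above the 26.8% and 26.6% of the mRNA strand. In MCF10A they had 23.2% and 21.7%, both below it. Depth differed as well: the median coverage on the opposite strand of MT-ND1 was 12 in MDA-MB-468 and 31 in MCF10A, against 24 and 19 on the mRNA strand. For MT-ND4L/MT-ND4 it was 28 and 51, against 21 and 22. The part of depth in these ratios was not tested. The opposite strand of MT-ND3 had 12.6% and 30.4%, and that of MT-ND5 5.09% and 4.31%.

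**Figure D4:**
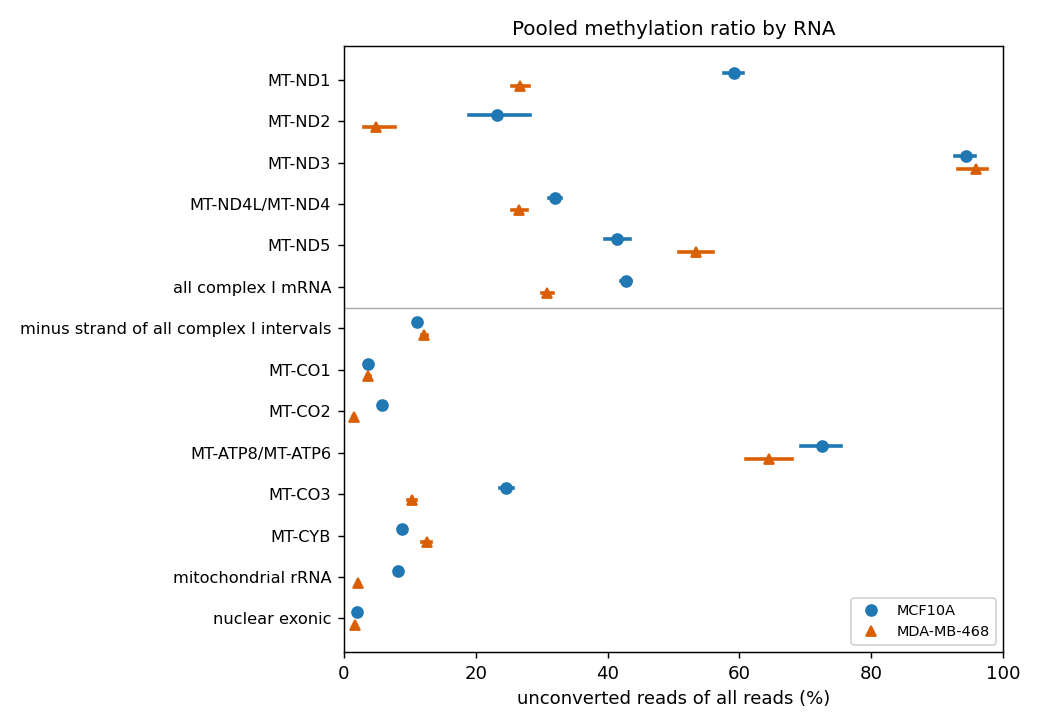
Unconverted reads in percent of all reads (horizontal axis), pooled over the kept cytosines of each complex I mRNA and, below the grey line, of the comparison RNAs, with circles for MCF10A and triangles for MDA-MB-468. Bars are 95% Wilson intervals, which cover counting error only. MT-ND3 and MT-ATP8/MT-ATP6 stand highest in both lines, and nuclear exonic cytosines lie at 1.95% and 1.77%.

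The mRNAs of the nuclear-encoded subunits of the same complex had far fewer calls and lower ratios. Of 37 NDUF genes, which encode core and accessory subunits, 35 had kept cytosines in MCF10A against 34 in MDA-MB-468. In MCF10A 53 of 3924 of their cytosines were called (1.35%), in 12 genes, and in MDA-MB-468 9 of 3219 (0.28%), in 4 genes. Of all nuclear exonic cytosines 0.851% and 0.742% were called, so the NDUF share lay above this in MCF10A and below it in MDA-MB-468. Pooled, 2.41% of the reads were unconverted in MCF10A (2.34% to 2.48%) and 1.73% in MDA-MB-468 (1.68% to 1.79%), at a median coverage of 33 in each line. No NDUF cytosine had a ratio of 90% or more in either line. NDUFB4, an accessory subunit of the membrane arm, had the most calls in MCF10A, 14 of 56 cytosines, with 6.86% of its reads unconverted. In MDA-MB-468 it had 0 calls among 54 cytosines, with 5.35%.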

How the data were processed

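RNA BS-Seq was analysed in 1 library each of MCF10A and MDA-MB-468. The authors trimmed the reads with Trim Galore (Phred 20), aligned them with MeRanTK to hg19 and used it to call cytosines (base quality of at least 30, read duplication of at most 10), per the methods. The processing notes in the labels also name Bismark, which the methods give for DNA. The deposited tables hold, per cytosine, raw counts of unconverted and of converted reads, from a coverage of 5. They carry no read positions, so the effect of the duplication limit was not tested, and neither was that of the structure filter of the methods, which is not in the tables.

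Cytosines with 10 or more reads were kept where they lay on chrM or, on the same strand, on an exon of a basic transcript of GENCODE release 44. The background was the summed unconverted over all counts of the kept cytosines. Calls used a one-sided Fisher's exact test, and differences between the libraries a two-sided one, each with Benjamini-Hochberg adjustment over the whole table at 0.05. Pooled ratios and single sites carry 95% Wilson intervals. The tests ran with scipy 1.17.1, numba 0.67.0, pandas 2.3.3 and numpy 2.4.6 in Python 3.11.15, with figures by matplotlib 3.10.9, and were tested on simulated counts. Positions are those of the files. They follow a mitochondrial sequence other than the one at hand (743 of the 745 positions met a cytosine of that sequence only when lowered by 1), so no mitochondrial sequence is printed.

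The intervals, comparison RNAs, NDUF genes and markers were chosen with earlier results of these data known. The marker PECAM1 was not analysed here. A further marker is not reported here. Sites were named as the called site of highest ratio at a coverage of at least 20 for each gene and line (on ties the deepest, then the lowest position), and the first, last and highest site of the longest stretch. Sites with the largest called difference between the lines were to be named as well, but none was called. Alternatives changed the background, the coverage minimum, the cytosines tested, the test, the interval ends, the weighting and the gap in stretches.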

Additional observations from a re-analysis of the deposited data

How the results depend on the processing

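No paired analysis was possible because each line has 1 library and the labels carry no replicate numbers, and for the same reason no replicate could be left out. In 50 of 89 comparisons with an alternative the value stayed within its limit, which was a factor of 1.5 for a count and the 95% interval of the first value for a share. With a coverage of at least 20, 266 of 307 cytosines were called in MCF10A (86.6%) against 157 of 217 in MDA-MB-468 (72.4%). With one of at least 5, 971 of 1130 (85.9%) and 726 of 870 (83.4%) were called. The shares of all kept cytosines called at these depths are not given. Against the chrM background 381 were called in MCF10A (55.4%) and 263 for MDA-MB-468 (57.8%). With a coverage of at least 20 the pooled ratios in MCF10A were 51.0% for MT-ND1, 96.0% for MT-ND3, 22.7% for MT-ND4L/MT-ND4 and 14.2% for MT-ND5, and in MDA-MB-468 17.9% for MT-ND1, 17.3% for MT-ND4L/MT-ND4 and 11.2% for MT-ND5, so the order of the lines in MT-ND5 turned. With one of at least 5, they were 51.6% for MT-ND2, 35.8% for MT-ND4L/MT-ND4 and 54.3% for MT-ND5 in MCF10A, and 33.8% for MT-ND1, 91.9% for MT-ND3, 35.7% for MT-ND4L/MT-ND4 and 58.1% for MT-ND5 in MDA-MB-468. The mean of site ratios was 69.4%, 53.2% and 48.2% for MT-ND1, MT-ND4L/MT-ND4 and MT-ND5 in MCF10A and 48.5%, 43.4% and 63.7% in MDA-MB-468. Over the cytosines kept in both lines, an alternative chosen after seeing the data, the pooled ratio was 43.7%, 25.5% and 30.5% for these genes in MCF10A and 25.3%, 25.7% and 38.8% in MDA-MB-468, so MT-ND4L/MT-ND4 was no longer higher in MCF10A. With a gap of 5 nt the longest stretch had 34 cytosines in MCF10A against 19 in MDA-MB-468, and stretches of at least 10 held 50.1% and 37.8% of the calls, and with a gap of 20 nt 91.0% and 85.0%. With a coverage of at least 20, 91.4% of the cytosines with 1 adjacent cytosine were called in MCF10A. In MDA-MB-468 it was 65.8% of those with none and 78.2% of those with 1. The number called different between the lines was 0 under each alternative tried, with 16 to 20 at an unadjusted p below 0.05. With only cytosines called in at least 1 line tested, the smallest adjusted p of the members was far lower than over all cytosines kept in both, though still above 0.05. The number called thus stayed at 0, while the adjusted p depended on which cytosines the adjustment covered. That narrower set was picked by calls in these same libraries, so its adjusted p is no separate support. The cause of these shifts was not tested. A ratio under 40% at a coverage of 10 was not detectable.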
